A study of Mus musculus with 8 samples.

Results

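Claudins are the membrane proteins that form the strands of tight junctions, and 10 of the 52195 genes in the deposited table were followed here across 4 mouse tissues: Cldn2, Cldn3, Cldn4, Cldn5, Cldn7, Cldn10, Cldn15, Cldn16, Cldn18 and Cldn19. They were chosen by name as the well-described claudins of epithelia and endothelium, without use of their values in a threshold, and were taken from 33 genes of the classical claudin family in the table. Bulk RNA-seq was collected from kidney, lung, liver and small intestine of male C57BL/6J mice aged 6 to 10 weeks, with no treatment named, with 2 libraries per tissue and 8 in all. No allele, agent or sorting step separated the groups, so each library held every cell type of its organ piece.

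Each claudin crosses the membrane several times, and its extracellular loops meet those of claudins on the neighbouring cell to close the space between the cells. Some claudins seal that space, while others line it with pores that let chosen ions or water through, so the set of claudins made by an epithelium sets how leaky it is and to what. Kidney tubules change claudins from segment to segment, the intestinal lining pairs sealing claudins with cation pores, alveolar cells use a form of claudin 18, and claudin 5 is the claudin of vessel walls.

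Expression was given as FPKM, read fragments scaled to transcript length and library size, which allows levels of different genes to be set side by side. The steps of the low values gave back the reads behind them, between 9399655 and 22132985 reads on genes per library, and 3 reads are used below as the limit under which a gene was not detectable. Differences are on the log2(FPKM + 1) scale, each tissue minus the mean of the other 3, from limma over the 16328 genes that reached an FPKM of 1 in 2 or more libraries, and a gene was called at an adjusted p under 0.05 and a log2 difference over 1. The pseudocount of 1 understates the differences of low genes. In bulk tissue, fewer cells of a type and less RNA per cell cannot be told apart. The labelled tissues carried their defining markers: all 5 proximal tubule, 5 alveolar type 1 and 5 hepatocyte genes listed, and all 6 enterocyte genes found in the table, were called higher in their own tissue.

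All 10 claudins passed the filter on low values, but Cldn16 and Cldn19 passed through kidney alone and Cldn18 through lung alone, so these 3 could be tested only because 1 tissue expressed them. Each of the 10 had a single leading tissue, kidney for Cldn2, Cldn10, Cldn16 and Cldn19, small intestine for Cldn3, Cldn4, Cldn7 and Cldn15, and lung for Cldn5 and Cldn18. None of the 10 was led by liver.

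**Figure D1:**
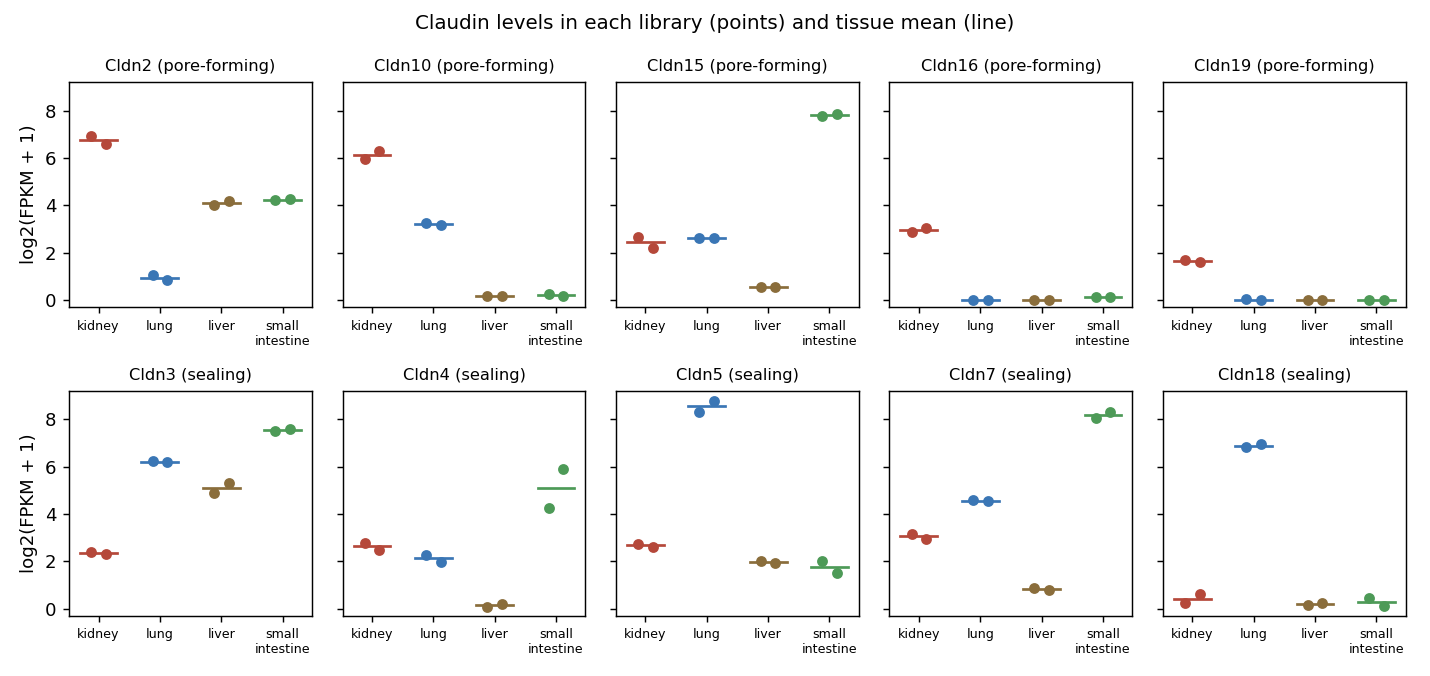
Level of each claudin as log2(FPKM + 1) on the vertical axis, with 1 point per library, the 4 tissues along the horizontal axis and a line at the tissue mean; the upper row holds pore-forming and the lower row sealing claudins. The points of a tissue lie close together except for Cldn4 in small intestine, where the libraries were at 18.4 and 59.6 FPKM.

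Cldn2, on chromosome X of GRCm38 from 139800828 to 139811386, encodes a pore for small cations and water and is known from the proximal tubule. Its FPKM was 122 and 96.9 in kidney, 17.9 and 18.1 in small intestine, 15.3 and 17.3 in liver, and 1.05 and 0.774 in lung. Both kidney libraries stood above the other 6 and both lung libraries below them. The kidney mean of 109.5 ± 17.8 (SD, n = 2) was 6.10-fold that of small intestine, 6.72-fold that of liver and 120.3-fold that of lung. The log2 difference was 3.68 in kidney (standard error 0.14, adjusted p = 1.23e-06, limma) and -4.11 in lung (adjusted p = 4.79e-07, limma). Small intestine against liver was not called, at 0.13 ± 0.17 (SE) on the log2 scale and an adjusted p of 0.529 in limma. Under median-of-ratios scaling the direction turned, with liver above small intestine by 0.71 (adjusted p = 0.00644, limma), again below the threshold of 1.

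Proximal tubule markers were high in kidney, as Cldn2 was, and 4 of 5 were called lower in lung, where Cldn2 was lowest. Outside kidney and lung the parallel did not hold. In liver 5 of 5 were called lower, and in small intestine 4 of 5 with 1 higher, while Cldn2 was called lower in neither. The 5 genes of that list summed to 1365 and 930.0 FPKM in kidney and to between 1.75 and 9.33 in the other 6 libraries, and the level of Cldn2, which is not in the sum, was 8.95% and 10.4% of it in kidney. In liver the sum of proximal tubule markers was 1.75 and 2.55, below the level of Cldn2 itself in the same libraries.

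The promoter of Cldn2 is shown because, among the 14 promoters listed for the 10 genes, it alone held a TATA box. The 300 bases run from 250 before to 50 after the RefSeq start site (GRCm38.p6, plus strand, chrX:139800558-139800857). Capitals mark TATAAA, 35 bases upstream of the start and found in 13.6% of the 32851 mouse promoters in the RefSeq-derived set, and TTTATG, the core of CDX sites, 244 bases upstream and found in 11.9%; both strands were searched.
Cldn2: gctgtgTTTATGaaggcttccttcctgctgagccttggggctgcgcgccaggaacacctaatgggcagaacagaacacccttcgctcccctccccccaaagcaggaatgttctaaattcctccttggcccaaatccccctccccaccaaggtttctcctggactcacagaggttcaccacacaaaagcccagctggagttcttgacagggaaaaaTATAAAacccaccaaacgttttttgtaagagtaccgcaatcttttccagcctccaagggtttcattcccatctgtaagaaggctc

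Cldn10, on chromosome 14 from 118787908 to 118875489, encodes pores whose ion choice depends on the start site, a cation form used in the thick ascending limb and an anion form used in the proximal tubule. Its FPKM was 61.3 and 77.4 in kidney and 8.42 and 8.07 in lung. In liver it was 0.126 and 0.112, which is 3 reads in each library, and in small intestine 0.206 and 0.136, from 5 and 4 reads. Kidney and lung therefore held nearly all of its signal, and no library of one tissue overlapped the other. The kidney mean of 69.4 ± 11.4 (SD, n = 2) was 8.41-fold that of lung, and the log2 difference in kidney was 4.93 (standard error 0.14, adjusted p = 6.80e-07, limma). In lung the log2 difference of 1.04 (adjusted p = 3.42e-04, limma) stood beside a shift of 0.82 in the median of all genes in that tissue, and the call was lost under 3 other scalings. Thick ascending limb markers summed to 3.22 and 0.909 FPKM in the lung libraries, below Cldn10 there, and to 945 and 641 in kidney.

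Both promoters of Cldn10 are printed because the start sites lie 67.1 kb apart and differ in make-up, while the gene-level FPKM adds the forms and cannot be split between them. The upstream one (chr14:118787621-118787920, plus strand, GRCm38.p6, RefSeq) had a GC content of 36.0%, and the downstream promoter (chr14:118854700-118854999, plus strand) one of 72.0%. Capitals mark AGATAA, which GATA factors bind and 11.2% of all promoters held. They also mark GTTAAT, the left part of HNF1 sites, held by 7.10%, and GGGCGG, the SP1 box, held by 35.7%, each searched on either strand. The upstream promoter held the first and second and the downstream one the third, at 3 places. The SP1 box was found in 8 of the 14 promoters, which belong to 7 of the 10 claudins.
Cldn10 upstream: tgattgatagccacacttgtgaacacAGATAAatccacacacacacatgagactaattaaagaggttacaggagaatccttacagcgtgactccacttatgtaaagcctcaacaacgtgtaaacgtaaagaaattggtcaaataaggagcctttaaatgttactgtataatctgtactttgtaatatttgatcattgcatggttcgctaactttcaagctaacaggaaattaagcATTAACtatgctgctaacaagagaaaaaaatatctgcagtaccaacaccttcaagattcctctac
Cldn10 downstream: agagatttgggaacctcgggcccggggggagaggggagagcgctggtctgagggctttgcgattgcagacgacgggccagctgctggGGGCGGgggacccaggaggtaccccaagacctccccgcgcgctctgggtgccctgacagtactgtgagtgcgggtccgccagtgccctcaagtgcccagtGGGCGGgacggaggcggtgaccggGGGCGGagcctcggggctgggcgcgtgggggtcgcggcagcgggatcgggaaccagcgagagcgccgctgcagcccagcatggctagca

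Cldn16, on chromosome 16 from 26463135 to 26482765, and Cldn19, on chromosome 4 from 119255414 to 119262438, encode partners in the junctions of the thick ascending limb that carry magnesium and calcium reabsorption. Cldn16 was at 6.24 and 7.24 FPKM in kidney, from 157 and 147 reads. It was at 0 in all 4 lung and liver libraries and at 1 read in each small intestine library. Cldn19 was at 2.22 and 2.07 FPKM in kidney, from 203 and 153 reads, at 1 read in lung replicate 1 and at 0 in the other 5 libraries. Kidney was thus the only tissue in which either gene exceeded the limit of 3 reads. Against that limit in each library, Cldn16 was at least 28.8-fold higher in kidney than in lung and at least 25.6-fold higher than in liver, and Cldn19 at least 29.6-fold higher than in liver and at least 31.3-fold higher than in small intestine.

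The log2 differences in kidney were 2.91 for Cldn16 (standard error 0.10, adjusted p = 8.66e-07, limma) and 1.65 for Cldn19 (standard error 0.07, adjusted p = 2.72e-06, limma). Cldn16 was 2.81 and 3.49 times Cldn19 in the kidney libraries, a ratio of length-scaled levels within a library. The 3 thick ascending limb markers were all called higher in kidney and summed to 945 and 641 FPKM there. Cldn16, which is not in that sum, was at a level of 0.660% and 1.13% of it. Exon bases of Cldn19 overlap the antisense gene Gm12927 over 2.11% of their length, and those of Cldn3 overlap the antisense gene Wbscr25 over 3.18%, and whether strand was used in counting is not given in the sources used here.

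Cldn15, on chromosome 5 from 136966616 to 136975858, encodes the sodium pore of the intestinal lining. Its FPKM was 218 and 233 in small intestine, 5.40 and 3.56 in kidney, 5.06 and 5.23 in lung, and 0.462 and 0.456 for liver. The small intestine libraries stood far above the rest, kidney and lung overlapped, and liver lay lowest. The small intestine mean of 225 ± 10.1 (SD, n = 2) was 43.8-fold that of lung, 50.3-fold that of kidney and 491-fold that of liver, a log2 difference of 5.96 ± 0.15 (SE) at an adjusted p of 1.91e-07 in limma. Lung and kidney differed by 0.19 on the log2 scale (adjusted p = 0.399, limma), which was not called, and under quantile normalization kidney stood above lung instead, by 0.75 (adjusted p = 0.00266, limma). Liver was called lower than the others at -3.75 (adjusted p = 1.02e-06, limma), and the call of kidney as lower, at -1.23 (adjusted p = 3.69e-04, limma), was lost under 6 of 17 alternatives.

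Of the other intestinal pore, Cldn2, there was much less. The ratio of Cldn15 to Cldn2 was 12.2 and 12.9 in the small intestine libraries, and 4.83 and 6.75 in lung, where both genes were low, against 0.0442 and 0.0368 in kidney and 0.0302 and 0.0264 in liver. Within a library such a ratio does not depend on how libraries were scaled to each other.

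Cldn3 and Cldn4 encode sealing claudins, lie next to each other on chromosome 5 and each consist of a single exon. Cldn3 runs from 134986214 to 134987472 on the plus strand and Cldn4 from 134945119 to 134946934 on the minus strand, 39.3 kb apart with no coding gene between them. Their promoters are shown because these neighbours share motifs yet differed in level in lung and liver. The 300 bases of Cldn3 are chr5:134985964-134986263 on the plus strand and those of Cldn4 are chr5:134946885-134947184, printed from the minus strand (GRCm38.p6, RefSeq). Capitals mark GGGCGG and CAGGTG, an E-box found in 20.2% of all promoters, on either strand. CAGGTG lies 31 bases downstream of the Cldn3 start and 11 bases downstream of the Cldn4 start. On the other strand it also lies 14 bases upstream of the Cldn4 start. Both motifs were also found in a promoter of Cldn7, so they are not particular to the neighbours.
Cldn3: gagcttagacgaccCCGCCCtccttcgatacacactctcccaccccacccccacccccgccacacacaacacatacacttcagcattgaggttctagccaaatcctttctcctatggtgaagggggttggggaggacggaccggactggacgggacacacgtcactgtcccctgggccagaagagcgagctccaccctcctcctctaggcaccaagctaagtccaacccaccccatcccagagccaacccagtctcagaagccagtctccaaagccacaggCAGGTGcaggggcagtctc
Cldn4: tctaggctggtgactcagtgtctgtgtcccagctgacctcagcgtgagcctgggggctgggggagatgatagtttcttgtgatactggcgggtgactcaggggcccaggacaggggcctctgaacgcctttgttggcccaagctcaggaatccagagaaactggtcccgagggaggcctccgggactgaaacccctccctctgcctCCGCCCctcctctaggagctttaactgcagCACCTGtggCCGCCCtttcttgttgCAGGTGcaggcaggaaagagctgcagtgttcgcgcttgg

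Cldn3 was spread most evenly over the tissues among the 10 claudins. Its FPKM was 180 and 195 in small intestine, 75.3 and 71.6 in lung, 28.8 and 38.3 for liver, and 4.22 and 3.99 in kidney. The 4 tissues did not overlap and kidney was lowest. The small intestine mean of 187 ± 10.4 (SD, n = 2) was 2.55-fold that of lung, 5.59-fold that of liver and 45.6-fold that of kidney, with log2 differences of 3.0 in small intestine (standard error 0.13, adjusted p = 1.73e-06, limma) and -3.94 in kidney (adjusted p = 8.72e-07, limma). The order of lung and liver depended on scaling: lung was higher by 1.12 on the log2 scale (adjusted p = 4.03e-04, limma), but under median-of-ratios scaling the difference was -0.50 (adjusted p = 0.0575, limma). The call of lung as higher than the mean of the others, at 1.22 (adjusted p = 9.51e-05, limma), was lost under 3 other scalings.

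Cldn4 was at 18.4 and 59.6 FPKM in small intestine, 5.85 and 4.61 in kidney, and 3.83 and 2.97 in lung. In liver it was at 1 and 3 reads, 0.0601 and 0.160 FPKM, no more than the limit. The small intestine libraries, with 312 and 1226 reads, differed 3.25-fold from each other, and both stood above the other 6. Their mean was 39.0 ± 29.2 (SD, n = 2), and its log2 difference reached 3.46 (SE 0.38, adjusted p = 1.81e-04, limma), 2.64 to 4.28 with 1 library left out. No other claudin differed between replicates by more than 1 on the log2(FPKM + 1) scale in any tissue, as 2.69% of all genes tested did in small intestine. Kidney against lung was not called, at 0.50 (standard error 0.47, adjusted p = 0.357, limma), but was under 2 other scalings, with kidney higher by 1.41 (adjusted p = 0.0365, limma) under quantile normalization.

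The neighbours kept no fixed ratio. Cldn3 was 0.721 and 0.865 times Cldn4 in kidney, 19.6 and 24.1 times in lung, and 9.81 and 3.27 times in small intestine. In liver Cldn3 was read 332 and 498 times where Cldn4 was at 1 and 3 reads.

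Cldn7, on chromosome 11 from 69964779 to 69967885, encodes a claudin of the basolateral side and the junctions of gut epithelium. Its FPKM was 264 and 319.6 in small intestine, 23.4 and 22.2 in lung, 8.02 and 6.73 in kidney, and 0.840 and 0.746 in liver. The 4 tissues were separate in this order. The small intestine mean of 292 ± 39.2 (SD, n = 2) was 12.8-fold that of lung, 39.6-fold that of kidney and 368-fold that of liver. The log2 difference was 5.36 in small intestine (standard error 0.13, adjusted p = 1.88e-07, limma) and -4.43 in liver (adjusted p = 1.89e-07, limma). Lung was above kidney by 1.51 (adjusted p = 9.29e-05, limma), a call lost under 3 other scalings although the direction stayed.

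Enterocyte markers were high in the same tissue as the 4 claudins that led in small intestine. Their 6 genes summed to 5699 and 7351 FPKM in the small intestine libraries and to between 2.96 and 56.7 in the other 6. Relative to that sum, which holds no claudin, Cldn7 was at 4.64% and 4.35%, Cldn15 3.83% and 3.16%, Cldn3 3.16% and 2.65%, and Cldn4 0.322% and 0.811%. In lung claudins lay above the sum of these markers, Cldn3 at 498% and 2419% of it and Cldn7 at 155% and 749%. In liver Cldn3 lay below the sum, at 59.1% and 67.6% of it. Pancreatic acinar genes were also present in small intestine, at 2549 and 1182 FPKM in sum, and bile duct and gallbladder genes, which gut epithelium also uses, at 908 and 1088. Their part in the claudin levels was not tested.

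Cldn5, on chromosome 16 from 18776847 to 18778262 and a single exon, encodes the claudin that seals endothelium. Its FPKM was 319.9 and 438 in lung, 5.74 and 5.11 in kidney, 3.02 and 1.87 in small intestine, and 3.01 and 2.81 in liver. The lung libraries stood far above the rest, which lay within a narrow range. The lung mean of 379 ± 83.4 (SD, n = 2) was 69.9-fold that of kidney, 130.2-fold that of liver and 155-fold that of small intestine, a log2 difference of 6.41 ± 0.18 (SE) at an adjusted p of 3.09e-07 in limma. Kidney, liver and small intestine were called lower, at -1.41, -2.37 and -2.63, against means that include lung. The call of kidney was lost under equal sums without mitochondrial genes and pseudogenes, at -0.89. Among these 3 tissues no pair was called, but under equal sums kidney stood above liver by 1.20 (adjusted p = 0.00214, limma), and kidney was called above small intestine under 5 of 17 alternatives.

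Endothelial markers moved with Cldn5 and to a smaller extent. The 7 genes of that list, all called higher in lung, summed to 368 and 451 FPKM in lung, with 14.4 and 9.50 for small intestine, 13.3 and 13.7 for liver, and 31 and 19.1 for kidney. Cldn5 is not among the 7, and its FPKM relative to their sum was 86.8% and 97.0% in lung and between 18.5% and 26.7% in the other 6 libraries. Both lung libraries lay above the other 6 in this ratio, which does not depend on the scaling between libraries.

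Cldn18, on chromosome 9 from 99689461 to 99717267, encodes a sealing claudin with a lung form and a stomach form made from different start sites. Its FPKM was 112 and 123 in lung, 0.178 and 0.519 in kidney, 0.360 and 0.0793 in small intestine, and 0.0980 and 0.174 in liver. Outside lung these were 17 and 40, 15 and 4, and 4 and 8 reads. The lung mean of 118 ± 7.98 (SD, n = 2) was 338-fold that of kidney, 537-fold that of small intestine and 866-fold that of liver, and its log2 difference reached 6.60 (SE 0.17, adjusted p = 2.97e-07, limma). Kidney, small intestine and liver were not called different from the neighbour in the order.

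Alveolar markers moved with Cldn18. The 5 alveolar type 1 genes summed to 1246 and 1527 FPKM in lung and to between 4.92 and 28.8 elsewhere, and the 4 alveolar type 2 genes to 16378 and 14193 in lung and to between 4.93 and 19.8 elsewhere. The level of Cldn18, which is in neither sum, was 8.99% and 8.08% of the type 1 sum in lung. In small intestine, replicate 1, which had the higher Cldn18, also held stomach transcripts: the 6 stomach genes summed to 121 FPKM there and to 0.586 in replicate 2. The part of these transcripts in the Cldn18 value was not tested.

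Both Cldn18 promoters are printed since the forms of lung and stomach are read from different starts, 7.20 kb apart, which the gene-level value cannot separate. They are chr9:99717218-99717517 and chr9:99710014-99710313, both printed from the minus strand (GRCm38.p6, RefSeq). Capitals mark GTTAAT and AGATAA on either strand. The upstream promoter held the former at 1 place and the latter at 2, and the downstream promoter held none of the 6 motifs searched.
Cldn18 upstream: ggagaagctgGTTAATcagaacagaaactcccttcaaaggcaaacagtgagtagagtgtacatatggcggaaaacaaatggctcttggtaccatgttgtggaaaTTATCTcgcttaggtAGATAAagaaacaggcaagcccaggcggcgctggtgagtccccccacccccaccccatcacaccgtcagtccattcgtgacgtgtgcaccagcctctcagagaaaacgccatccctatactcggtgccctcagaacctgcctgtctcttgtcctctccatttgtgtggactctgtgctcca
Cldn18 downstream: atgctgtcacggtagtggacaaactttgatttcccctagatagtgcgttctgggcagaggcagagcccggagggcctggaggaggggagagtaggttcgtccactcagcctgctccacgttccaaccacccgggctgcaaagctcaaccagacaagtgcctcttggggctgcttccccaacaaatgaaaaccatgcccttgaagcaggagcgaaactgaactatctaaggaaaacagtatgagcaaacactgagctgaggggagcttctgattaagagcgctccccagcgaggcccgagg

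Counted over the 10 genes, kidney had 4 called higher and 5 lower, where 8.65% of all genes tested were called higher and 16.1% lower. Lung had 4 higher (Cldn3, Cldn5, Cldn10, Cldn18) and 2 lower (Cldn2, Cldn16), against 40.7% and 8.26% of all genes. Liver had 0 higher and 7 lower, against 6.56% and 32.7%. For liver, limma gave 0 of 10 genes higher also at an unadjusted p under 0.05, and limma-voom on the recovered reads called 0. Under median-of-ratios scaling Cldn2 stood at 0.94 (adjusted p = 4.66e-04, limma) and Cldn3 at 0.74 (adjusted p = 0.00488, limma) in liver, below the threshold of 1 on the log2 difference; for Cldn3 this turns the direction from -0.28. Small intestine had 4 higher and 3 lower, against 13.7% and 11.3%. The 10 were chosen with earlier results of these data known, so the 4 higher in small intestine are not read against the background. Of the 6 other claudins tested, 2 were called higher and 2 lower in small intestine. The 4 higher in kidney include Cldn16 and Cldn19 and the 4 higher in lung include Cldn18, which could be tested only through that tissue. The 5 lower in kidney include Cldn18 and the 2 lower in lung include Cldn16, which had to lie low there. None of these counts is read against the background.

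The median log2 difference of the 10 genes was 0.02 for lung, -0.13 for small intestine, -0.53 for kidney and -2.36 for liver, beside 0.82, -0.01, -0.34 and -0.72 over all genes tested. Cldn16, Cldn18 and Cldn19, which passed the filter through kidney or lung alone and so had to lie low in liver and small intestine, are part of these medians, and Cldn16 and Cldn18 of the 7 called lower in liver and Cldn18 of the 3 in small intestine, so neither is read against all genes. Many calls of a tissue as lower set it against a mean raised by 1 tissue: Cldn5 in kidney was called lower and was still the second highest. Between pairs of tissues, 8 of 10 claudins were called for kidney and lung, kidney and liver, kidney and small intestine, lung and liver, and lung and small intestine, and 4 of 10 for liver and small intestine. The background for these pairs was 50.3%, 23.1%, 29.5%, 62.7%, 40.6% and 36.2% of all genes in the same order. The pairs with kidney count Cldn16 and Cldn19, and those with lung count Cldn18, which passed the filter through that tissue alone, so these counts are not read against the background either.

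**Figure D2:**
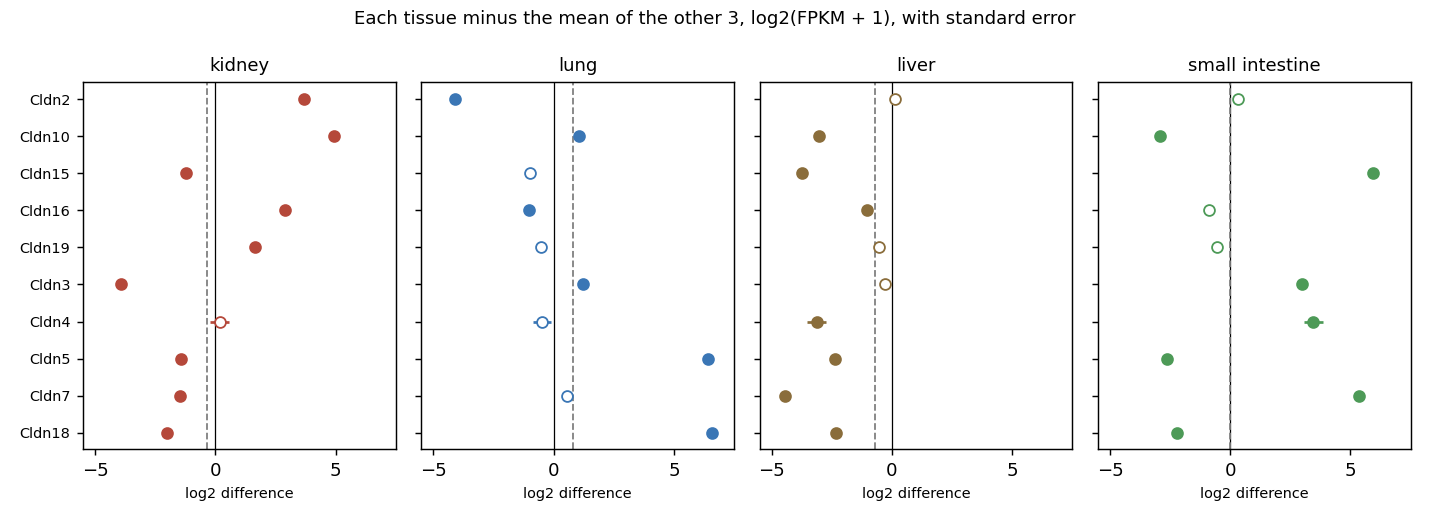
Log2 difference of each claudin (horizontal axis, log2(FPKM + 1), 1 tissue minus the mean of the other 3) with its standard error, in 1 panel per tissue; filled points were called, open points were not, and the dashed line is the median of all genes tested. Kidney points to the right are Cldn2, Cldn10, Cldn16 and Cldn19, and no liver point lies right of 1.

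By role, the pore-forming group (Cldn2, Cldn10, Cldn15, Cldn16, Cldn19) had 4 of 5 members called higher in kidney, where 8.65% of all genes were, and 1 of 5, Cldn15, in small intestine, where 13.7% were. Cldn16 and Cldn19 are among these 4 and passed the filter on low values through kidney alone. The sealing group (Cldn3, Cldn4, Cldn5, Cldn7, Cldn18) had 4 of 5 called lower in kidney (16.1% of all genes), where the calls of Cldn5 and Cldn7 were lost under equal sums. It had 3 of 5 higher in lung (40.7%) and 3 of 5 higher in small intestine (13.7%). The other 2, Cldn5 and Cldn18, were called lower in small intestine (11.3%). Of those higher in lung, the call of Cldn3 was lost under 3 other scalings. Cldn18 passed the filter through lung alone and so had to lie low in kidney and small intestine. The counts that include it are not read against all genes. Summed as FPKM, pore-forming genes made up 89.2% and 89.9% of the 10 claudins in the kidney libraries, 33.7% and 30.3% in those of small intestine, 32.6% and 29.8% in liver, and 2.65% and 2.09% in lung. Kidney and lung lay at opposite ends, and the ranges of liver and small intestine overlapped in these shares of the 10. Over 33 claudin genes they did not overlap. Pore-forming genes were at 15.9 and 17.9 FPKM in liver, where the 33 summed to 79.0 and 99.8. In small intestine they were at 236 and 251 of 716 and 844, a larger share than in liver in both libraries.

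All 33 genes of the classical claudin family in the table, of which 9 were at 0 in every library, summed to 716 and 844 FPKM in small intestine, 564 and 687 in lung, 270.4 and 238 in kidney, and 79.0 and 99.8 in liver. The 10 claudins held 97.3% to 98.2% of this sum in lung and small intestine, 81.9% and 87.3% in kidney, and 61.6% and 60.2% in liver. In kidney Cldn2 was 42.9% ± 3.21 (SD, n = 2) of the sum and Cldn10 27.6% ± 6.92. In lung Cldn5 was 60.2% ± 4.99 and Cldn18 18.9%. In small intestine Cldn7 was 37.4% ± 0.670, Cldn15 29.0% and Cldn3 24.1%. In liver Cldn3 was 37.4% ± 1.39, and next came Cldn1, a claudin of bile canaliculi and skin that is not among the 10, at 24.0%.

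**Figure D3:**
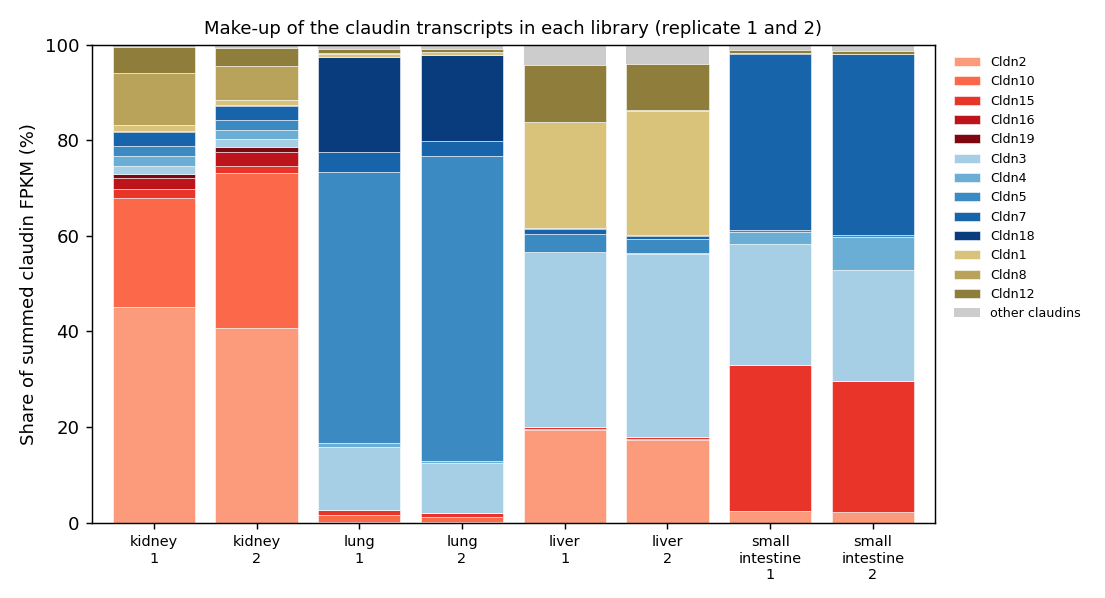
Share of each claudin in the summed FPKM of 33 claudin genes (vertical axis, percent), 1 bar per library; red shades are pore-forming, blue shades sealing, tan shades Cldn1, Cldn8 and Cldn12, and grey the rest. Red fills most of both kidney bars, blue most of both lung bars, and tan is widest in liver, where the 10 claudins made up 61.6% and 60.2%.

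Of the other claudins, 25 of 27 listed were in the table and 6 passed the filter on low values. Cldn8, a collecting duct claudin, was called higher in kidney by 4.06 (standard error 0.21, adjusted p = 5.49e-06, limma), and Cldn1 in liver by 2.95 (standard error 0.18, adjusted p = 9.33e-06, limma), with 17.5 and 25.8 FPKM there. Also called higher were Cldn14 in liver, by 1.95 (adjusted p = 2.65e-06, limma), and Cldn23 and Cldnd1 in small intestine, by 2.58 and 1.45. Of 26 partners that build the junction around claudins (scaffolds, occludin-like and JAM proteins and polarity factors), lung had 12 called higher and 0 lower, small intestine 9 and 3, kidney 3 and 10, and liver 1 and 14. Over all genes tested the shares were 40.7% and 8.26% for lung, 13.7% and 11.3% for small intestine, 8.65% and 16.1% for kidney, and 6.56% and 32.7% for liver. The partners' median log2 differences were 0.97, 0.38, -0.55 and -1.09 in the same order of tissues, each on the same side of 0 as the median of all genes except in small intestine, where that median was -0.01.

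By the rule of size, the partners named in lung were Tjp1, the scaffold ZO-1, at 2.46, Jam2, an adhesion molecule of vessel walls, at 2.41 and Prkci, a polarity kinase, at 1.97. In small intestine they were Tjp3, the scaffold ZO-3, at 2.64, Marveld3 at 2.31 and Crb3, an apical polarity protein, at 1.75. In kidney Cgnl1, which encodes paracingulin, was higher by 2.25 and F11r, which encodes JAM-A, lower at -1.03. In liver Lsr, a protein of 3-cell corners, was higher by 1.06 and F11r lower at -1.53. All 10 of these log2 differences were called by limma, and they kept their sign after the median shift of all genes was taken off, with F11r then at -0.69 in kidney and -0.81 in liver.

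A tissue index that is 0 for equal levels in the 4 tissues and 1 for a gene found in 1 tissue alone, computed on tissue means of log2(FPKM + 1), had a median of 0.756 for the 10 claudins. It ran from 0.397 for Cldn3 to 0.997 for Cldn19, and the median was 0.733 for the 6 other claudins tested, 0.422 for the 26 partners and 0.450 for all genes tested. Because Cldn16, Cldn18 and Cldn19 entered only through their leading tissue, the index of these 3 had to be high.

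**Figure D4:**
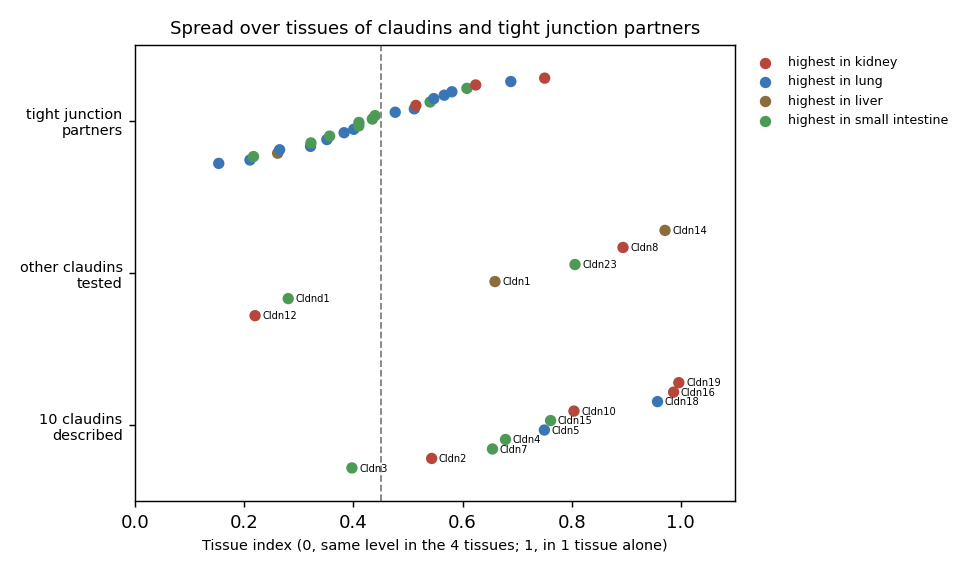
Tissue index (horizontal axis, no unit) of the 10 claudins, the 6 other claudins tested and 26 junction partners, coloured by leading tissue, with a dashed line at the median of all genes, 0.450; points are spread vertically within a row only to keep them apart. Of the 10, Cldn3 alone lies left of the line.

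For each claudin, the genes with the nearest pattern were found by the Euclidean distance of log2(FPKM + 1) over the 8 libraries, with Pearson's r as a description. The 8 points are 4 tissues with 2 libraries each, so r mostly reflects which tissue leads. Slc47a1, a transporter that exports organic cations, was nearest to Cldn2 (distance 0.942, r = 0.989), with 164 and 105 FPKM in kidney and 21.0 and 23.2 in liver. Mal, a membrane raft protein, was nearest to Cldn10 (distance 1.19, r = 0.993). Pls1, the actin bundler of microvilli, was nearest to Cldn15 (distance 0.984, r = 0.992), and Mapk13 to Cldn7 (distance 1.68, r = 0.995). Emp2 was nearest to Cldn5 (distance 1.64, r = 0.994), with 332 and 369 FPKM in lung and at most 2.77 elsewhere. Adap1 was nearest to Cldn4 (distance 1.1, r = 0.978), Acsl5 to Cldn3 (distance 2.16, r = 0.925), and Gm11771 to Cldn18 (distance 0.695, r = 0.998). Hoxc10 was nearest to Cldn16 (distance 0.251, r = 0.999) and 0610040F04Rik to Cldn19 (distance 0.171, r = 0.997), where levels were low and distances small.

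Among the claudins themselves, r over the 8 libraries was 0.997 for Cldn16 and Cldn19, 0.993 for Cldn5 and Cldn18, and 0.968 for Cldn7 and Cldn15. Replicates of a tissue lay close: the absolute log2 difference of the 2 libraries had a median of 0.0740 for the claudins and 0.150 for all genes in lung, 0.255 and 0.296 in kidney, 0.0751 and 0.141 for liver, and 0.102 and 0.178 for small intestine.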

How the data were processed

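The authors deposited FPKM values for 52195 genes in 8 libraries, 2 per tissue. By the study's methods, bbduk kept the reads of each sample index and STAR 2.5.3a with default settings mapped them to the mouse genome of Ensembl release 75. The authors then made FPKM values with the fpkm function of DESeq2. The counter, its use of strand and how it treated reads with several matches are not given in the sources used here.

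Groups were taken from the sample labels, and every column matched a sample. Exon lengths of GENCODE M21 (99.3% of symbols matched 1 gene) turned the steps of the FPKM values into reads: 94.5% to 96.1% of values of 0 to 50 reads per library were whole within 0.02 reads. Depth was 9399655 to 22132985 reads on genes, and limits of 3 reads cover counting error only. By the study, the 2 libraries of a tissue came from separate mice and each mouse gave all 4 tissues, so libraries of different tissues share animals. The sources used here do not say which libraries share a mouse, and the tests treat the 8 as independent.

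Values were transformed to log2(FPKM + 1) and tested with limma 3.58.1 in R 4.3.3 (lmFit, then eBayes with a trend), all 8 libraries in 1 fit without a block, with Benjamini-Hochberg adjustment over 16328 genes within each comparison. Single genes were also tested by a two-sided exact permutation test over the 28 ways to choose 2 of 8 libraries, whose smallest p is 0.0357. In its leading tissue each claudin reached that p, except Cldn2 in kidney and Cldn3 in small intestine, both at 0.0714 in this test. Of the claudins called lower by limma, only Cldn2 in lung and Cldn3 in kidney reached the smallest exact p. The script was tested on simulated data. Promoters were those of RefSeq on GRCm38.p6. Python 3.11.15, numpy 2.4.6, pandas 2.3.3 and matplotlib 3.10.9 were used for the rest.

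The claudins, roles, marker lists, motifs and tests were chosen with earlier results of these data known. Named partners were those called in a tissue with a mean FPKM of at least 10 there, at most 3 per tissue by size of the difference, and the 3 nearest genes per claudin were listed. Alternatives changed the pseudocount, the filter, the scaling, the trend and the block, or left out a library; limma-voom on the recovered reads was added after the data were seen.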

Additional observations from a re-analysis of the deposited data

How the results depend on the processing

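Scaling between libraries changed calls of single claudins and the balance of all genes called: 83.1% were higher in lung and 16.7% in liver, and 47.5% and 47.8% under median-of-ratios scaling, while in kidney 35% were higher and 58.3% under equal sums without mitochondrial genes and pseudogenes. The cause of each changed call was not tested. In lung the claudins called higher went from 4 to 2 under median-of-ratios scaling, under equal sums without mitochondrial genes and pseudogenes, and under quantile normalization, and those called lower went from 2 to 4 under the first and the last of these. Cldn3 in lung against liver reversed to -0.50 under median-of-ratios scaling. In kidney the claudins called lower went from 5 to 2 under equal sums, and the pair of lung and liver went from 8 to 5 called under quantile normalization. With a pseudocount of 0.1, 5 in place of 3 claudins were called lower in small intestine, and 1 in place of 0 reached the smallest exact p in liver. With 1 library left out, claudins called higher in kidney were 2 to 4, the 2 being without either kidney library, when Cldn16 and Cldn19 fail the filter, and those called lower in lung 1 to 3, the 1 being without kidney replicate 1. With the 10 claudins alone in the sum, Cldn2 was 50.9% in kidney, Cldn3 61.5% in liver and Cldn7 38.1% in small intestine. Limma-voom on recovered reads, an alternative chosen after seeing the data, called 2027 genes higher and 4160 lower in kidney, against 1413 and 2625. Leaving out a library of a tissue leaves 1, which is assumed to vary like the other tissues.

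By the study each mouse gave all 4 tissues, but no source used here ties replicate numbers to mice. The data gave no sign that the numbers mark mice: the correlation of same-numbered deviations ran from -0.217 to 0.0528 over the 6 pairs of tissues. With the replicate block, claudins called higher were 4 for small intestine, 4 for lung, 4 for kidney and 0 for liver, and no claudin call changed.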

Other observations

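Low values of Cldn18 outside lung stood beside low values of other lung genes. As a percent of the lung mean, Cldn18 was between 0.0673 and 0.440 in the other 6 libraries, Sftpc, the surfactant protein of alveolar type 2 cells, between 0.0335 and 0.131, and Scgb1a1, a secreted protein of club cells, between 0.0359 and 0.115. In small intestine the stomach genes Gkn1, Gkn2 and Pgc were at 30.6, 66.7 and 22.7 FPKM in replicate 1 and at 0, 0 and 0.445 in replicate 2.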
